A study of Mus musculus with 6 samples.

Results

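Messenger RNA of the formins, the proteins that start and elongate unbranched actin filaments, was quantified in RNA-seq libraries of γδ T cells from mouse spleen. The 9 genes Fmnl1, Fmnl2, Fmnl3, Diaph1, Diaph2, Diaph3, Daam1, Inf2 and Fhod1 were matched by symbol, and all 9 were among the 19390 gene symbols of the count table. Of the 6 libraries 3 are labelled KO and 3 are labelled WT. KO was taken as USF3-f/f; CD2-cre and WT as USF3-f/f, both 6 weeks old, with floxed alleles in both groups. The KO-labelled mice alone carried CD2-cre, which drives Cre in lymphoid cells, so the transgene and the deletion cannot be told apart. The γδ T cells were sorted by flow cytometry. Nothing states whether a library came from 1 animal or a pool, so tests measure the spread between these libraries, which may be technical.

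The family was selected on the comparison of KO-labelled with WT-labelled libraries; its results were known when the members were chosen. The differences of the 9 genes between labels are therefore given as a description, with no p-value. Where a formin is said to pass or not to pass, this places it in the fit over all genes and is no independent test of it.

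A formin binds the fast-growing end of an actin filament with its FH2 domain and stays there while subunits are added, fed by profilin-bound actin on its FH1 domain. The other main nucleator, the Arp2/3 complex, makes branched networks instead. Most formins of the Fmnl, Diaph and Daam groups are held inactive by contact between their own ends until a signal opens them. In T cells, formins are known for building the filaments of the immune synapse, moving the centrosome towards it and shaping migrating cells.

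Libraries held 34644862 to 35806402 counts each, and 12810 genes passed the filter on low counts, all 9 formins among them. Usf3, the targeted gene, had 72.0, 65.9 and 67.5 CPM in KO-labelled replicates 1, 2 and 3, against 70.2, 72.6 and 73.7 CPM in WT-labelled replicates 1, 2 and 3, where CPM are counts scaled to a common library size. Its log2 fold change was -0.076 ± 0.043 (SE; edgeR adjusted p = 0.261). Permuting the labels over log2 CPM (exact, two-sided) gave p = 0.2, and the smallest p that 3 libraries against 3 allow is 0.1. Since the floxed exons are not stated, gene-level counts do not check the KO label. Over all 12810 tested genes 7.23% were called higher and 10.1% lower in KO-labelled libraries at an edgeR adjusted p under 0.05. Of the 10 marker genes listed for γδ T cells, 6 had a row and 4 of these were lower. They were the CD3 genes Cd3e, Cd3d and Cd3g, at log2 fold changes of -0.08, -0.12 and -0.17, and Blk, at -1.15 (edgeR adjusted p = 0.0364, 0.00287, 5.91e-05 and 0.00133). Cd247, at 0.03, and Sox13, at -0.43, did not pass (edgeR adjusted p = 0.593 and 0.102). Cd3e stood at 323 to 332 CPM in KO-labelled and 341 to 348 CPM in WT-labelled libraries, and Blk averaged 1.39 ± 0.170 CPM in KO-labelled and 3.10 ± 0.699 CPM in WT-labelled libraries (SD, n = 3 each). Of the 6 markers listed for αβ T cells, 3 had a row, namely Cd4, Cd8a and Cd8b1. They summed to 103 to 107 CPM in KO-labelled and 84.2 to 84.9 CPM in WT-labelled libraries, most of it Cd8a. Cd8a was higher, and Cd4 and Cd8b1 did not pass. Markers of NK cells summed to 1142 to 1181 CPM and 957 to 976 CPM in the same groups. Among them Eomes was higher, at 494 to 503 CPM in KO-labelled and 303 to 311 CPM in WT-labelled libraries. Ncr1 was lower, at a mean of 0.965 CPM in KO-labelled and 1.85 CPM in WT-labelled libraries. Nkg7, at 574 to 601 CPM and 576 to 594 CPM in the same groups, and Klrb1c did not pass. Most of the NK sum was Nkg7 and Eomes. The receptor constant-region genes of the γδ and αβ T cell lists were not analysed here. Markers of B cells, myeloid and dendritic cells, neutrophils, platelets, erythroid and stromal cells summed to 816 to 909 CPM in KO-labelled and 807 to 862 CPM in WT-labelled libraries over 35 genes. Ccr2, which T cells also express, made up 752 to 847 CPM of that sum in KO-labelled and 729 to 776 CPM in WT-labelled libraries. Of 9 tested genes of these lists Ccr2 was higher, and Cd68, Itgax and Pecam1 were lower. Csf1r, Vcam1, Col3a1, S100a8 and Camp had 0 counts in every KO-labelled library, which allows up to 0.0866 CPM by counting error alone. In a WT-labelled library they had at most 4 counts each. Adgre1 had 0 counts in every WT-labelled library and 1, 0 and 0 counts in KO-labelled replicates 1, 2 and 3. The part of these markers in the formin values was not tested.

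Stretches of sequence upstream of the formin genes were read from RefSeq's table for GRCm38.p6, matched by symbol. Windows ran from 250 bases before to 50 bases after a start. They were taken for 8 of the 9 genes, and a window of Diaph1 was not analysed here. The bases before the start are shown for Fmnl2 (chr2:52857618-52857867, plus strand) and Fmnl1 (chr11:103170888-103171137, plus strand), the members past the threshold between labels. Capitals mark the GC box GGGCGG or its complement CCGCCC.

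Fmnl2: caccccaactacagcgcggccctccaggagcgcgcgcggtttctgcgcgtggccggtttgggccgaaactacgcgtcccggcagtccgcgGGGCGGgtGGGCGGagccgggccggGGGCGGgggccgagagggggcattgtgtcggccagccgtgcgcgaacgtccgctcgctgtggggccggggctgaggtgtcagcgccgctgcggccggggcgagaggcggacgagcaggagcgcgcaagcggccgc

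Fmnl1: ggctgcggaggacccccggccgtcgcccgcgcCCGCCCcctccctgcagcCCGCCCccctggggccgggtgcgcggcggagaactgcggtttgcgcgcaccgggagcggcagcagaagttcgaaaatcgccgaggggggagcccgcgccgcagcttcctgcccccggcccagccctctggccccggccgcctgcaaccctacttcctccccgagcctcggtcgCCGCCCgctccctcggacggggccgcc

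Both windows are rich in G and C, 78.7% for Fmnl2 and 79.3% for Fmnl1, above 98.4% and 98.7% of all 32851 windows. Each stretch holds 3 GC boxes. A GC box on either strand is found in windows of 7 of the 8 formins, all but Diaph3, and in 35.7% of all windows or 60.0% of those of tested genes. Here and below, formins are counted by gene over any of its windows and the shares by window, so the units differ. The E-box CACGTG, the sequence that upstream stimulatory factors are known to bind, reads the same on both strands and was found in the windows of Diaph2 and Inf2. In all windows it is found in 7.15%, and in 9.60% of those of tested genes. It is shown in capitals with flanking bases for Diaph2 (chrX:129749648-129749687, plus strand) and Inf2 (chr12:112588704-112588743, plus strand).

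Diaph2: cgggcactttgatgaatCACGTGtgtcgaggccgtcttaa

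Inf2: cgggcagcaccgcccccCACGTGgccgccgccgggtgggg

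The E-box begins 77 bases before the start in Diaph2 and 46 bases before the first of its listed starts in Inf2. The other windows taken, those of Fmnl2 and Fmnl1 among them, do not hold these letters. The CArG box, to which serum response factor binds, was found in 0 of the 8 genes' windows, against 1.63% of all windows. A match or its absence describes the letters of these windows only. Binding, by USF3 or any other factor, was not tested.

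Among the formins, Fmnl1 and Diaph1 dominated in both groups. FPKM, which divide counts by gene length and library total, allow levels to be compared between genes. Fmnl1, the formin of blood cells, stood at 138 ± 2.51 FPKM in KO-labelled and 150 ± 1.59 FPKM in WT-labelled libraries (SD, n = 3 each). Diaph1 (mDia1) stood at 73.1 ± 1.97 FPKM in KO-labelled and 72.6 ± 1.69 FPKM in WT-labelled libraries. Of the summed FPKM of all formins, Fmnl1 took 55.7 ± 0.394% in KO-labelled and 58.3 ± 0.594% in WT-labelled libraries, and Diaph1 took 29.5 ± 0.664% and 28.1 ± 0.517% in the same groups. In WT-labelled libraries the level of Fmnl1 exceeded that of 96.8% of tested genes and that of Fmnl2 exceeded 9.78%.

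After these came Diaph3, Fhod1, Fmnl3, Diaph2, Inf2, Daam1 and Fmnl2, in that order in both groups. Ranges over the 3 libraries of a label did not overlap between any neighbours in the order, in either group. The smallest step in WT-labelled libraries was from Diaph3 to Fhod1, a ratio of 1.32 between mean FPKM, and the largest was from Diaph1 to Diaph3, 5.65. Daam1 exceeded Fmnl2 by a factor of 4.56. Levels in WT-labelled libraries ran from 152 FPKM, the highest value of Fmnl1, to 0.184 FPKM, the lowest value of Fmnl2.

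**Figure D1:**
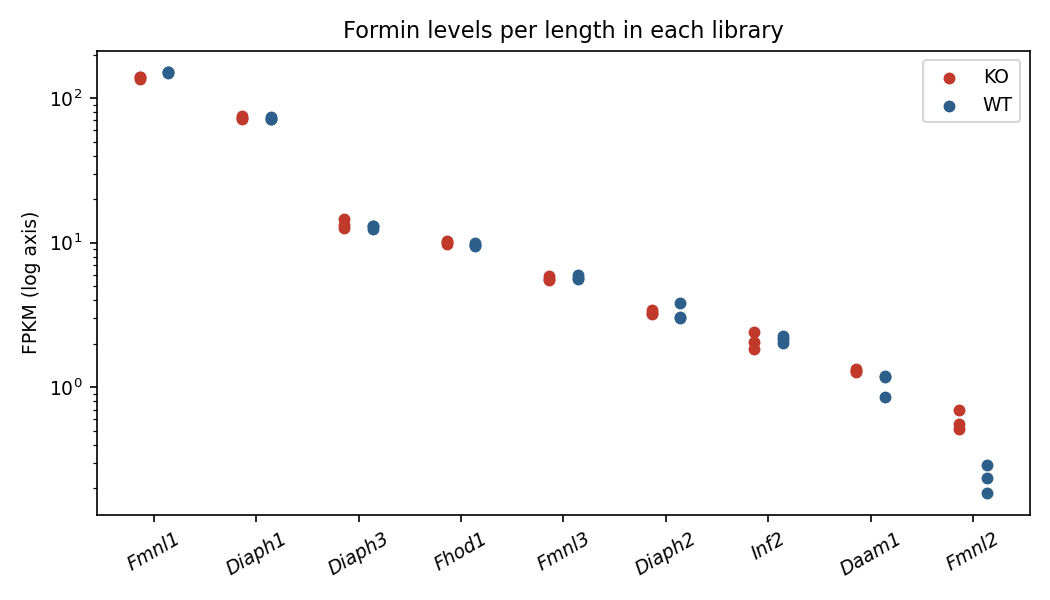
FPKM of the 9 formins in each of 6 libraries on a log axis, ordered by mean level in WT-labelled libraries, with KO-labelled libraries left of WT-labelled ones. Fmnl1 and Diaph1 lie above 70 FPKM in every library, and Fmnl2 lies below 1 FPKM in every library.

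Of the 6 further mouse formin genes listed, Fmn1, Fmn2, Daam2 and Fhdc1 had a row and none passed the filter. Fmn1 had 2, 0 and 0 counts in KO-labelled replicates 1, 2 and 3 and 0 counts in every WT-labelled library. Fmn2 had at most 4 counts and Fhdc1 at most 7 in a library. Daam2, the paralog of Daam1, had 0 counts in the KO-labelled libraries and 10, 2 and 0 counts in WT-labelled replicates 1, 2 and 3. Without the filter edgeR called Daam2 lower in KO-labelled libraries, on 12 counts in all, 10 of them in WT replicate 1 (adjusted p = 0.0474). Fhod3 and Grid2ip were not analysed here.

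Fmnl2 was higher and Fmnl1 lower in KO-labelled libraries, and the other 7 formins did not pass the threshold of an edgeR adjusted p under 0.05. So 2 of 9 formins were called, where 17.3% of all 12810 tested genes were called, 7.23% higher and 10.1% lower. The libraries of the labels did not overlap in 3 of 9 formins (Fmnl1, Fmnl2 and Daam1), against 32.1% of all tested genes. Nothing is read from these counts, since the family was chosen with this comparison known. The median log2 fold change was 0.0006 over the 9 formins and 0.0014 over all tested genes. In bulk RNA, fewer cells that express a gene and less RNA of it per cell cannot be told apart.

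**Figure D2:**
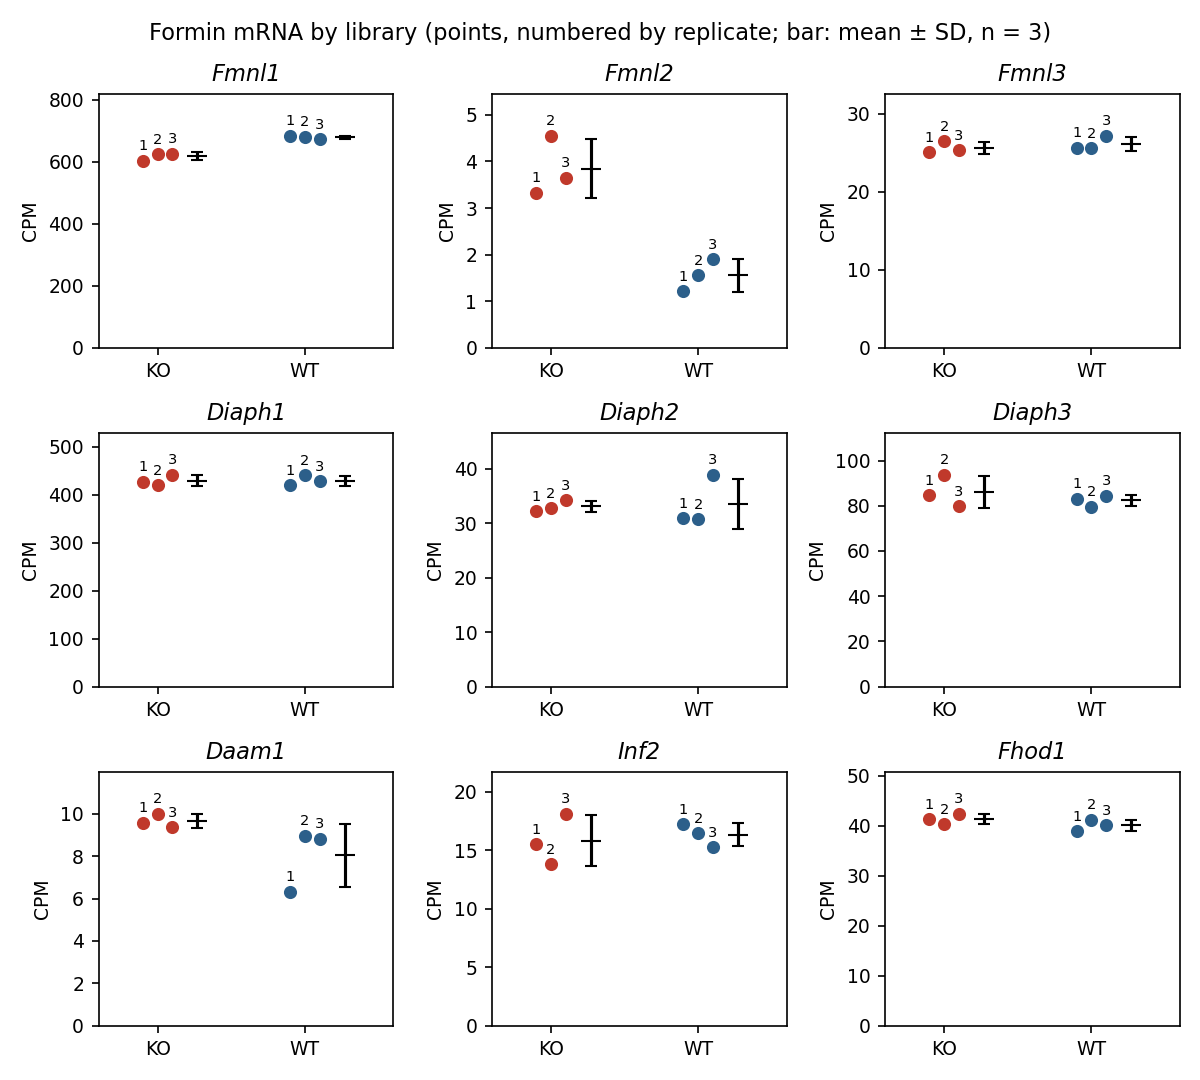
CPM of each formin in 3 KO-labelled (left) and 3 WT-labelled (right) libraries, numbered by replicate, with mean ± SD; every axis starts at 0. Libraries of the labels are apart for Fmnl1, Fmnl2 and Daam1 and overlap for the other 6 genes.

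Fmnl2, known for driving lamellipodia and filopodia, had 3.33, 4.55 and 3.65 CPM in KO-labelled replicates 1, 2 and 3, against 1.21, 1.55 and 1.91 CPM in WT-labelled replicates 1, 2 and 3. Every KO-labelled library was above every WT-labelled one, and KO replicate 2 was the highest. The log2 fold change was 1.30 ± 0.22 (SE), a 2.47-fold higher level with a 95% interval of 1.79 to 3.41. These values rest on 117, 163 and 127 counts in KO-labelled and 43, 54 and 67 counts in WT-labelled libraries. The coefficient of variation of CPM between libraries was 16.5% in KO-labelled and 22.4% in WT-labelled libraries, where counting alone gives 8.59% and 13.5% in the same groups.

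Fmnl1, which is known to act with Diaph1 in moving the centrosome of human T cells, had 603, 624 and 625 CPM in KO-labelled replicates 1, 2 and 3. In WT-labelled replicates 1, 2 and 3 it had 683, 679 and 673 CPM. All KO-labelled libraries were below all WT-labelled ones, with replicate 1 the lowest. The fitted difference was -8.96%, with a 95% interval from -11.9% to -5.98% (log2 fold change -0.14 ± 0.02, SE). The ratio of Fmnl1 to Fmnl2 in FPKM was 200 to 265 in KO-labelled libraries, against 516 to 825 in WT-labelled libraries. Fmnl2 took 0.237 ± 0.038% of the summed formin FPKM in KO-labelled and 0.0915 ± 0.020% in WT-labelled libraries (SD, n = 3 each). The summed level of the 9 formins was 244 to 251 FPKM in KO-labelled and 257 to 260 FPKM in WT-labelled libraries.

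Fmnl3, the closest relative of Fmnl2 within the group, had 25.03, 26.5 and 25.3 CPM in KO-labelled replicates 1, 2 and 3, against 25.6, 25.5 and 27.2 CPM in WT-labelled replicates 1, 2 and 3. These ranges overlap, and the log2 fold change of -0.03 ± 0.06 (SE) has a 95% interval from -0.16 to 0.10. The ratio of Fmnl3 to Fmnl2 in FPKM was 8.42 to 10.9 in KO-labelled and 20.6 to 30.7 in WT-labelled libraries.

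**Figure D3:**
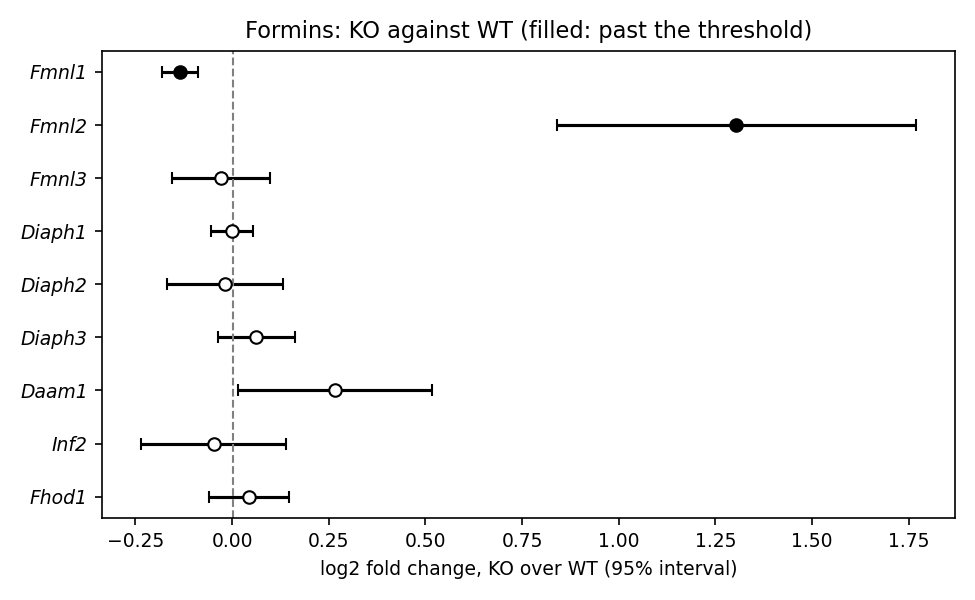
Log2 fold change of each formin, KO over WT, with its 95% interval from the edgeR fit; filled points are past the threshold and the dashed line is the median of all tested genes, 0.0014. Fmnl2 at 1.30 stands far to the right, Fmnl1 at -0.14 lies to the left, and the intervals of 6 others include 0.

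Diaph1, whose loss in mice is known to impair T cell migration, had 428, 420 and 442 CPM in KO-labelled replicates 1, 2 and 3, against 420, 441 and 428 CPM in WT-labelled replicates 1, 2 and 3. With 14954 to 15366 counts per library it is among the best measured members, and its fitted difference was 0.044%, with a 95% interval from -3.62% to 3.84%.

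Diaph2 (mDia3), an X-linked gene, had 32.3, 32.8 and 34.3 CPM in KO-labelled replicates 1, 2 and 3, against 30.98, 30.7 and 38.9 CPM in WT-labelled replicates 1, 2 and 3. WT replicate 3 stood above all other libraries. With it the log2 fold change was -0.02, and without it 0.11. Xist, the RNA of the inactive X chromosome, stood at 1060 to 1203 CPM in KO-labelled and 1161 to 1237 CPM in WT-labelled libraries, with WT replicate 3 the highest; its part in the Diaph2 value was not tested.

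Diaph3 (mDia2), known for its part in cytokinesis, had 84.7, 93.7 and 79.8 CPM in KO-labelled replicates 1, 2 and 3, against 83.1, 79.5 and 84.5 CPM in WT-labelled replicates 1, 2 and 3. The KO-labelled libraries spanned more than the WT-labelled ones, with replicate 2 the highest. The log2 fold change of 0.06 ± 0.05 (SE) became -0.0018 without KO replicate 2 and 0.12 without KO replicate 3. Cell division genes, 30 tested, summed to 10875 to 10931 CPM in KO-labelled and 10836 to 10889 CPM in WT-labelled libraries. Of them 7 were higher, among them Tyms, Ccnb1 and Mcm5 at log2 fold changes of 0.22, 0.18 and 0.11, and 2 were lower, among them Top2a at -0.08 (edgeR adjusted p = 4.09e-05, 5.85e-05, 0.00213 and 0.00279). Over all tested genes the shares were 7.23% higher and 10.1% lower. The part of these genes in the Diaph3 value was not tested.

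Daam1, which binds Dishevelled of the Wnt pathway, had 9.58, 9.99 and 9.37 CPM in KO-labelled replicates 1, 2 and 3, against 6.32, 8.97 and 8.82 CPM in WT-labelled replicates 1, 2 and 3. The labels did not overlap, but WT replicate 1 stood well below the other 2. The log2 fold change was 0.27 ± 0.12 (SE) and did not pass. It was 0.12 without WT replicate 1.

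The labels overlapped for Inf2 and Fhod1. Inf2, a formin of the endoplasmic reticulum that also severs filaments, had 15.5, 13.8 and 18.1 CPM in KO-labelled replicates 1, 2 and 3, against 17.2, 16.5 and 15.3 CPM in WT-labelled replicates 1, 2 and 3. KO replicate 2 was the lowest and KO replicate 3 the highest of all 6, so that the WT range lay within the KO range. Its coefficient of variation was 13.8% in KO-labelled and 6.02% in WT-labelled libraries. The log2 fold change of -0.05 ± 0.09 (SE) was -0.16 without KO replicate 3 and 0.04 without KO replicate 2. Fhod1, a formin that also bundles filaments, had 41.3, 40.3 and 42.4 CPM in KO-labelled replicates 1, 2 and 3, against 39.0, 41.2 and 40.2 CPM in WT-labelled replicates 1, 2 and 3. Its fitted difference was 3.06%, with a 95% interval from -4.06% to 10.7%.

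**Figure D4:**
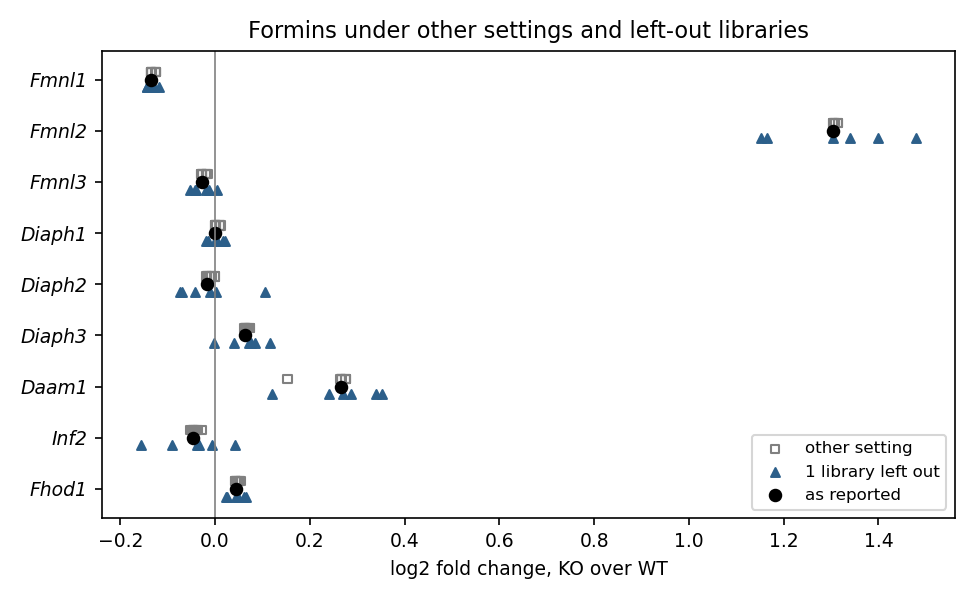
Log2 fold change of each formin as reported (black), with 1 library left out (triangles) and under other scalings, filters and tools (squares). Fmnl2 stays between 1.15 and 1.48 and Fmnl1 between -0.14 and -0.12, while Diaph1, Diaph2, Diaph3, Fmnl3 and Inf2 take both signs.

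Of the 31-base words in their GENCODE transcripts for GRCm38, Diaph2 and Diaph3 shared 4 each with another formin and Fhod1 shared 2, and the other 6 shared 0. In that annotation 116 exonic bases of Fhod1 lie opposite Tmem208, at a mean of 859 counts per library, and 120 of Fmnl1 lie opposite Gm20511, which was not analysed here. Whether counting used strand is not stated, so reads of these stretches cannot be told apart.

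The 5 genes whose pattern over the 6 libraries was most like that of Fmnl2 were Timp2, Pxdc1, Gpr155, Pacsin1 and Kcnc1. They were ranked among 10413 tested genes of at least 2 mean CPM by the root mean square difference of centred log2 CPM, which was 0.19 for Timp2 and 0.24 for Kcnc1. Timp2, a metalloproteinase inhibitor gene, stood at 8.78 ± 0.552 CPM in KO-labelled and 3.21 ± 0.206 CPM in WT-labelled libraries (SD, n = 3 each). Log2 fold changes of the 5 genes ran from 1.03 for Pxdc1 to 1.45 for Timp2. The choice by likeness to Fmnl2 fixes that these genes are higher in KO-labelled libraries.

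Genes of the wider actin machinery were called in both directions, at shares near those of all tested genes. Of 75 tested genes in 8 lists, 7 were higher and 9 lower in KO-labelled libraries by edgeR, and 7 higher and 8 lower by DESeq2. Over all tested genes 7.23% were higher and 10.1% lower by edgeR, and nothing particular to these lists is read from the counts. The median log2 fold change was -0.0019, beside 0.0014 for all tested genes.

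Of the Arp2/3 complex, 0 of 10 subunit genes passed the threshold in edgeR or in DESeq2, and 0 had an unadjusted edgeR p under 0.05. Log2 fold changes of its genes ran from -0.04 to 0.23. Arpc4 was at 0.05 (edgeR adjusted p = 0.261), and Actr3b gave the largest, at 4.89 ± 0.312 CPM in KO-labelled and 4.17 ± 1.01 CPM in WT-labelled libraries (SD, n = 3 each; edgeR adjusted p = 0.417). Of the 21 tested activators of this complex 3 were higher and 0 lower in edgeR and in DESeq2, with 2 lower at an unadjusted edgeR p under 0.05. For both lists, the edgeR shares over all tested genes were 7.23% higher and 10.1% lower. Abi2, a subunit of the WAVE complex that activates Arp2/3, stood at 60.4 ± 4.51 CPM in KO-labelled and 40.6 ± 1.70 CPM in WT-labelled libraries, a log2 fold change of 0.57 ± 0.05 (SE; edgeR adjusted p = 3.16e-08). Washc1, which activates Arp2/3 on endosomes, rose by 0.22 ± 0.05 (adjusted p = 0.00235), and Hcls1, the cortactin relative of blood cells, by 0.09 ± 0.03 (adjusted p = 0.0221). The Hcls1 call was lost without KO replicate 3, WT replicate 1 or WT replicate 3 (adjusted p = 0.0676, 0.108 and 0.0777).

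Among 6 tested inhibitors and branch-removing genes, Gmfg, which takes branches apart, fell to 70.8 ± 1.65 CPM in KO-labelled libraries, against 83.4 ± 4.34 CPM in WT-labelled ones (edgeR adjusted p = 0.000313). The coronin gene Coro1c rose by 0.11 ± 0.03 on the log2 scale (adjusted p = 0.00723). Of the 3 tested tandem nucleators, which line up actin subunits on repeated domains, Spire2 rose. It had 2.99, 2.68 and 3.16 CPM in KO-labelled replicates 1, 2 and 3, against 1.18, 1.61 and 1.37 CPM in WT-labelled replicates 1, 2 and 3. Its log2 fold change was 1.09 ± 0.23 (SE; edgeR adjusted p = 0.0017). Spire1 was lower by the test at -0.27 ± 0.09 (adjusted p = 0.0436). That call was lost by DESeq2, with limma on FPKM and with the replicate number as a block. It was also lost with any 1 library but KO replicate 2 left out (adjusted p 0.0515 to 0.233 over all of these).

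Proteins that bind actin subunits or filament ends had 2 of 18 tested genes higher and 4 lower. Beside this, 7.23% of all tested genes were higher and 10.1% lower. Tmsb4x, the gene of the subunit-sequestering thymosin β4, fell to 3057 ± 20.6 CPM in KO-labelled libraries, against 3390 ± 66.4 CPM in WT-labelled ones (edgeR adjusted p = 1.42e-06). Gsn, which encodes the filament-severing gelsolin, fell to 7.90 ± 0.462 CPM, against 12.3 ± 0.863 CPM in WT-labelled libraries (adjusted p = 4.35e-05). Evl, of the Ena/VASP filament elongators, was at -0.13 ± 0.03 (SE), and Capg, a capping protein gene, at 0.15 ± 0.03 (adjusted p = 0.000811 and 0.00069). Pfn1 and Enah lie outside the rule for named genes and were picked with their values in view. Pfn1, the profilin that feeds actin to formins, was at 0.10 (edgeR adjusted p = 0.00939) and the Ena/VASP gene Enah at -0.38 (adjusted p = 0.00907). The Pfn1 call was lost with limma on FPKM and without WT replicate 1 (adjusted p 0.0625 to 0.0859), and that of Enah without KO replicate 1 or WT replicate 3 (adjusted p = 0.0694 and 0.0551).

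Of the actins, Actg1 stood at 2916 ± 25.8 CPM in KO-labelled and 3076 ± 38.1 CPM in WT-labelled libraries (log2 fold change -0.08; edgeR adjusted p = 0.00254), and Actb did not pass (-0.02; adjusted p = 0.365). Serum response factor and its actin-sensing partners drive many of these genes. Srf and Mrtfb did not pass, at -0.09 and 0.06 (adjusted p = 0.104 and 0.526), nor did Mrtfa. By edgeR 7.23% of all tested genes were higher and 10.1% lower. Of 12 tested target genes 0 were higher and 2 lower in edgeR and in DESeq2, and at an unadjusted edgeR p under 0.05 the counts were 0 and 3. The lower genes were Tagln2 at -0.24 ± 0.02 (SE; adjusted p = 1.13e-07) and the tropomyosin gene Tpm4 at -0.07 ± 0.02 (adjusted p = 0.0315). The Tpm4 call was lost under upper-quartile and total-count scaling, with limma on FPKM, and with any 1 library but KO replicate 3 left out (adjusted p 0.0647 to 0.127).

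**Figure D5:**
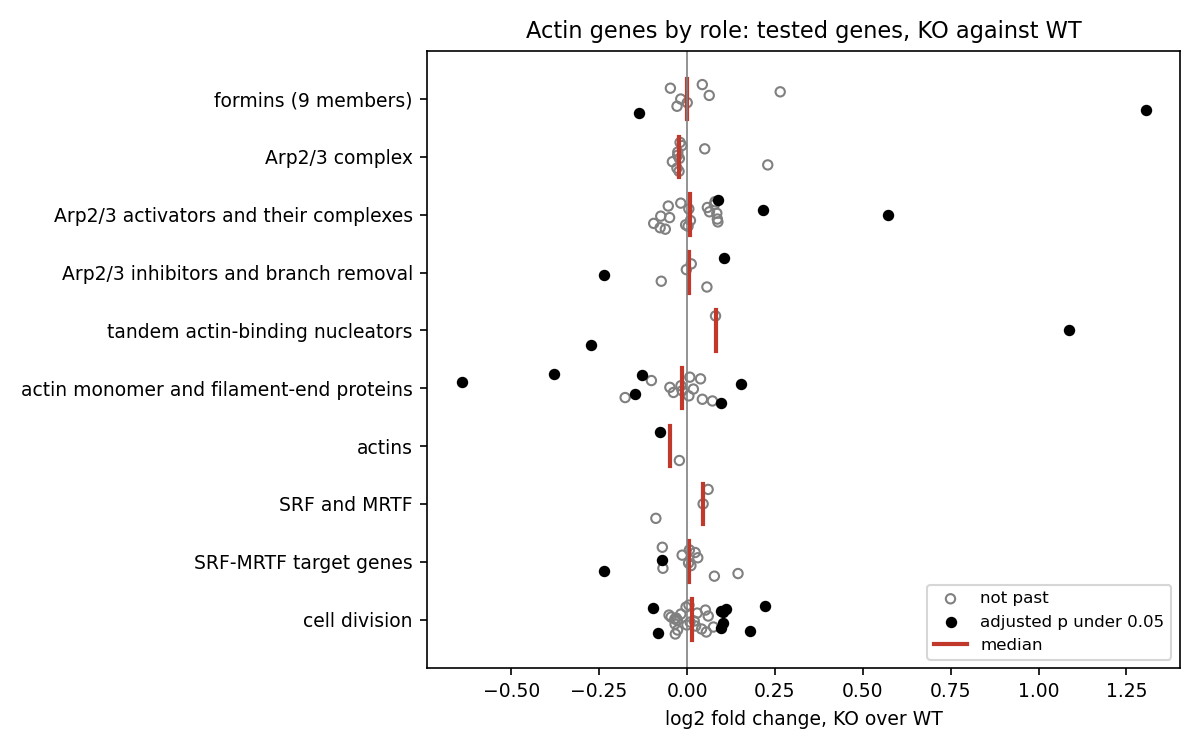
Log2 fold change, KO over WT, of each tested gene by role, with filled points past the threshold and a red bar at each median. Fmnl2 at 1.30 and Spire2 at 1.09 lie farthest to the right, Gsn at -0.64 farthest to the left, and list medians lie between -0.05 and 0.08.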

How the data were processed

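Per the labels' protocols, TRIzol was used for total RNA and a VAHTS Universal V6 kit for the libraries. The submitters' processing notes name fastp, HISAT2, HTSeq and the build GRCm39; no version, setting, annotation or use of strand is stated there. The deposited counts are whole numbers per gene symbol and library. The deposited FPKM equal count over column total and 1 fixed length per gene in all 19390 genes, within 0.01 bp of length. Groups follow the titles.

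Counts were tested with edgeR 4.0.16 (R 4.3.3): TMM scaling with factors from 0.994 to 1.01, filterByExpr, glmQLFit and glmQLFTest on the label, and Benjamini-Hochberg adjustment over 12810 genes, threshold 0.05. The filter left out 0.0366% of counts. CPM use TMM-scaled library sizes. SE is the absolute log2 fold change over the root of F. Intervals are 95% intervals of that fit and cover the spread between libraries. The fit was checked on simulated counts. Also tried were scaling by RLE, upper quartile or total counts, no filter, at least 1 CPM in 3 libraries, DESeq2 1.42.0, limma 3.58.1 on log2(FPKM + 1) and log2(FPKM + 0.1) for genes of mean FPKM at least 1, the replicate number as a block, and each library left out.

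No library was taken as a repeat of another: chi-square per degree of freedom was 3.22 to 6.94 for pairs within a label. The members and lists were chosen with earlier results of these data known. From each list, up to 4 genes past the threshold were named by smallest p, or the 2 of smallest p where fewer than 2 passed, and 1 planned list is not reported here. GRCm38 annotation (RefSeq and GENCODE M21) served only for promoter windows, overlaps and shared words.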

Additional observations from a re-analysis of the deposited data

How the results depend on the processing

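Of 9 formins 2 were called under all count-based settings, with each library left out, and with the replicate block; these repeats use the libraries on which the family was chosen and are no independent support. With limma on FPKM 1 was called, Fmnl1, at either pseudocount, since Fmnl2 has a mean FPKM under 1 and was not tested there. The other 7 formins passed in 0 of their 15 alternatives. In the actin lists limma on FPKM called 11 genes, 5 higher and 6 lower, at either pseudocount, against 7 higher and 9 lower by edgeR; fewer genes were tested there. With 1 library left out the higher genes numbered 5 to 7 and the lower ones 6 to 11. Of the 16 called actin genes, 11 stayed past the threshold in every alternative that tested them. Over all genes 2219 were called, and 1660 to 2353 under the alternatives. Usf3 passed in none of its 15 alternatives.

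The labels number replicates 1 to 3 in both groups but give no shared origin. Deviations of same-numbered libraries correlated at 0.056, -0.016 and -0.034, so the libraries were not treated as pairs, and not every library correlated best with its own number. The replicate block gave 1969 calls over all genes, 7 higher and 8 lower actin genes, without Spire1 (adjusted p = 0.0598), and -0.077 for Usf3.

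Depth limits Fmnl2, Daam2, Fmn1, Fmn2 and Fhdc1 most. Fold changes of the 7 formins that did not pass each moved by over 1.5 times with at least 1 library left out; those of Fmnl3, Diaph1, Diaph2, Diaph3 and Inf2 also changed sign.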
